A study of Mus musculus with 18 samples.

Results

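YAP and TAZ, encoded by Yap1 and Wwtr1, the TEAD transcription factors Tead1, Tead2, Tead3 and Tead4, and the target genes Ccn1, Ccn2, Ankrd1 and Amotl2 were followed through 18 RNA libraries of mouse pancreatic tumour cells. These 10 genes were taken by their symbols out of 35642 genes in the deposited table. Levels are TPM, transcript abundances divided by transcript length and scaled to a total of 1000000 per library, so they can be compared between genes of a library. In every group the 10 genes were measured in 3 libraries, and each passed the filter on low values (at least 1 TPM in at least 3 libraries).

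YAP and TAZ are coactivators that do not bind DNA themselves. When the Hippo kinases are active, MST kinases activate LATS kinases, which phosphorylate YAP and TAZ and hold them in the cytoplasm; unphosphorylated YAP and TAZ enter the nucleus and bind TEAD factors at target genes. Attachment, cell shape, density and cell polarity all act on this switch, and in mouse models of pancreatic cancer YAP is known for its part in tumour growth. RNA levels do not report the phosphorylation or location of YAP and TAZ.

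The series concerns Mcu, the pore of the mitochondrial calcium uniporter, and its title names epithelial plasticity. Its 6 groups of 3 libraries came from 2 lines, 1151 and 2838, made from tumours of KPCY mice, which develop pancreatic tumours and whose alleles include Trp53 LSL-R172H/+, Pdx1-Cre, active in the pancreatic lineage, and an R26LSL-Yfp reporter. In line 1151, cells that had lost floxed Mcu through Cre and held an empty vector (labelled knockout) were compared with cells of the same knockout in which MCU was put back (labelled re-expressing); both were kept in puromycin at 2 μg/mL. In line 2838, CRISPR knockout clones 17 and 42 were compared with Mcu wild-type clones 15 and 22, which held an empty vector; a vector is not named for the knockout clones. All cells were untreated, and each 2838 group is 1 clone. Line 1151 is batch 1 and line 2838 is batch 2 in the labels, so line and batch cannot be told apart, while every comparison within a line is also within a batch. Separate cultures are not named for the 3 libraries of a group, and the p-values over libraries may then describe technical variation.

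Mcu RNA did not follow the labels. It was 16.6, 15.1 and 13.3 TPM in 1151 cells labelled knockout and 14.4, 15.2 and 13.1 TPM in those labelled re-expressing. Mcu averaged 119 ± 4.79 TPM in the clone labelled knockout 17 and 11.4 ± 0.888 TPM in knockout clone 42, against 75.2 ± 6.44 TPM in wild-type clone 15 and 83.3 ± 20.8 TPM in wild-type clone 22 (SD, n = 3 each). Knockout clone 42 was thus low in Mcu RNA, whereas clone 17 lay above the wild-type clones and the 1151 groups overlapped. Every direction below is therefore a direction between the labels. The columns gave no read counts, so depth is unknown; 10760 to 11507 genes reached 1 TPM per library. The library with 10760 was wild-type clone 22 replicate 3, which lay below both other libraries of its clone for 73.8% of genes and for 10 of 10 genes followed here; results in 2838 are given with and without it where it matters. The epithelial keratins Krt7, Krt8, Krt18 and Krt19 and the ductal factor Sox9 were above 1 TPM in all 18 libraries, as was Cdh1 (E-cadherin), while Epcam was not above 1 TPM in all libraries of any group. No fibroblast marker of 8 reached 1 TPM in all libraries of any group.

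The upstream sequences are shown first for Ccn1, Ankrd1 and Amotl2, which had the largest rises among the 10 genes in line 1151, and for Tead2, which had the only fall. RefSeq starts (GRCm38.p6) were at hand for 7 of the 10 genes. None was at hand for Tead1, Tead4 and Ccn2, which are not shown. In the 250 bases before the start, the letters GGAATG, the core of the TEAD recognition sequence, and their reverse complement CATTCC are in capitals. Each sequence is written 5′ to 3′ on the strand of the gene, so CATTCC marks the word on the opposite strand.
Ccn1, chr3:145649986-145650235, minus strand: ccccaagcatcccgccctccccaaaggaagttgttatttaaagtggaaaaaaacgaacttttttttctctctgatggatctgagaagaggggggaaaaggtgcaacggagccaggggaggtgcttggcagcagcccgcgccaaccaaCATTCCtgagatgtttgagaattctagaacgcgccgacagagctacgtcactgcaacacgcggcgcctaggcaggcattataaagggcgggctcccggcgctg
Ankrd1, chr19:36119845-36120094, minus strand: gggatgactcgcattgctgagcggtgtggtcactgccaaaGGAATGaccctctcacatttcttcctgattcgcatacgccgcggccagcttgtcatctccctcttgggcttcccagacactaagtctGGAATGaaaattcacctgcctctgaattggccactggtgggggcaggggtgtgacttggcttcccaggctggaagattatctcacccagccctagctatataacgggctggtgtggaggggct
Amotl2, chr9:102717554-102717803, plus strand: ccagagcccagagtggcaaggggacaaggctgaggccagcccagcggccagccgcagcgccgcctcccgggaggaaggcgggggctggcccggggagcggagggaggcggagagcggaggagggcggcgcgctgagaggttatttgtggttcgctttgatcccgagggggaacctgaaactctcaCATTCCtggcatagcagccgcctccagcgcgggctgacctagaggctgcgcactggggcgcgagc
Tead2, chr7:45215542-45215791, plus strand: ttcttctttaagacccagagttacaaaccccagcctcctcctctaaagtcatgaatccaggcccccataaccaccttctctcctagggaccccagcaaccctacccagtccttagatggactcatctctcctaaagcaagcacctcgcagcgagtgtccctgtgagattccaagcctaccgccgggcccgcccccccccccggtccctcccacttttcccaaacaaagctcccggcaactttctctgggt

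In Ccn1 the word CATTCC began 103 bases before the start, and in Amotl2 it began 65 bases before it. Ankrd1 held GGAATG in 2 places, 210 and 123 bases before its start. The same word began 141 bases before the start of Yap1, and at least 1 upstream window of Wwtr1 and of Tead3 also held it in one orientation or the other. Tead2 was the only one of the 7 genes with no such word in its window. In all, 6 of 7 genes held the word, beside 14.4% of 27025 mouse genes with a RefSeq start at hand. Among 32851 windows of the same length the share was 12.6%. The genes were chosen as YAP, TAZ, TEAD factors and their targets, so their high share is not an independent result. A match describes letters and is neither a bound site nor a cause, and no match says only that these letters are not in this window. The AP-1 word TGACTCA and its reverse complement TGAGTCA, recognised by FOS and JUN factors that often share elements with TEAD, were in 0 of the 7 genes, beside 5.16% of genes.

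In line 1151 the coactivators, 3 of the TEAD factors and all 4 targets were higher in cells labelled knockout, and Tead2 was lower. The largest rises were in Ccn1, Ankrd1 and Amotl2, and the fall of Tead2 was larger in size than the rise of Amotl2. With limma over the 6 libraries and Benjamini-Hochberg adjustment, 9 of 10 genes were called higher and 1 lower at an adjusted p under 0.05. This line differed broadly: 61% of 11630 genes were called, 34% higher and 27% lower. Libraries of the 2 groups did not overlap for 10 of 10 genes here, beside 67.2% of all genes (37.4% higher, 29.8% lower). The median difference of the 10 genes was 0.78 on the log2(TPM + 1) scale, beside 0.055 for all genes.

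Among the coactivators, Yap1 had 65.7, 65.2 and 64.7 TPM in cells labelled knockout, against 50.5, 53.8 and 51.4 TPM in re-expressing cells. Every knockout-labelled library was higher, and the log2 difference was 0.32 (SE 0.050, adjusted p = 0.00133, limma), at percentile 68.4 of all genes. Wwtr1, which encodes TAZ, had 55.1, 55.8 and 54.9 TPM in knockout-labelled cells, against 31.2, 31.2 and 30.4 TPM in re-expressing cells. Its groups were also apart, and its log2 difference of 0.82 (SE 0.049, adjusted p = 1.71e-05, limma) was larger than that of Yap1. The Yap1 to Wwtr1 ratio of TPM was accordingly 1.18 ± 0.0125 in knockout-labelled cells and 1.68 ± 0.0560 in re-expressing cells (SD, n = 3 each), and the ranges of the ratio did not overlap. RNA from cultured cells is measured in bulk, so fewer cells that express a gene and less RNA per cell cannot be told apart.

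The TEAD factors, the DNA-binding partners, moved in both directions. Tead1 had 34.5, 37.2 and 34.1 TPM in knockout-labelled cells, against 17.5, 15.8 and 15.5 TPM in re-expressing cells, a log2 difference of 1.07 (SE 0.071, adjusted p = 2.69e-05, limma). Tead2 had 3.12, 4.69 and 2.42 TPM in knockout-labelled cells, against 26.1, 22.2 and 22.4 TPM in re-expressing cells. The groups were far apart and in the order opposite to Tead1; the log2 difference was -2.51 (SE 0.19, adjusted p = 4.23e-05, limma), at percentile 0.946 of all genes. Tead3 had 9.64, 11.5 and 10.4 TPM in knockout-labelled cells, against 5.96, 5.51 and 6.07 TPM in re-expressing cells, and all 3 knockout-labelled libraries were higher (log2 difference 0.75, SE 0.090, adjusted p = 3.89e-04, limma). Tead4 had 24.5, 27.4 and 24.6 TPM in knockout-labelled cells, against 19.2, 18.5 and 17.0 TPM in re-expressing cells, again with no overlap (log2 difference 0.47, SE 0.077, adjusted p = 0.00176, limma).

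The sum over the 4 TEAD genes differed less than its parts: it was 74.7 ± 5.33 TPM in knockout-labelled cells and 63.9 ± 4.22 TPM in re-expressing cells (SD, n = 3 each). Its composition was different. Tead1 made up 47.3 ± 1.08% of it in knockout-labelled cells and 25.5 ± 0.0368% in re-expressing cells, whereas Tead2 made up 4.51 ± 1.21% in knockout-labelled cells and 36.9 ± 1.10% in re-expressing cells. Tead2 was thus the largest part of the sum in re-expressing cells and the smallest in knockout-labelled cells. Tead4, second in both groups, held 34.1 ± 0.205% in knockout-labelled cells and 28.5 ± 1.12% in re-expressing cells.

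**Figure D1:**
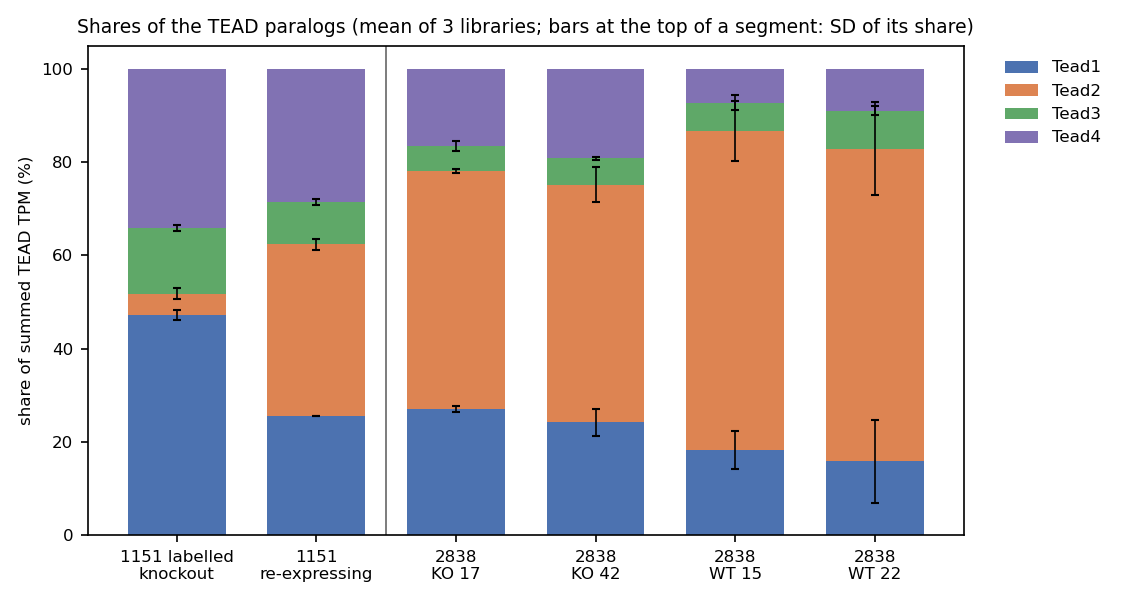
Share of the summed TPM of Tead1, Tead2, Tead3 and Tead4 held by each gene (y axis, percent; mean of 3 libraries, with the SD of the Tead1, Tead2 and Tead3 shares at the top of their segments) in the 1151 and 2838 groups. Tead2 is 4.51% of the sum in 1151 cells labelled knockout and 36.9% in re-expressing cells, and 51.0% in both 2838 knockout clones beside 68.3% and 67.0% in the wild-type clones.

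Of the targets, 3 rose more than any other of the 10 genes. Ccn1 encodes the secreted matricellular protein CYR61. It had 160, 176 and 158 TPM in knockout-labelled cells, against 17.0, 17.1 and 18.01 TPM in re-expressing cells. The groups lay 9.01-fold apart on the TPM + 1 scale, a log2 difference of 3.17 (SE 0.062, adjusted p = 2.23e-07, limma) at percentile 99.5 of all genes. Ankrd1, an ankyrin repeat protein best known from heart and skeletal muscle, had 416, 414 and 388 TPM in knockout-labelled cells, against 67.3, 64.1 and 70.3 TPM in re-expressing cells. Its libraries too were widely apart, with a log2 difference of 2.58 (SE 0.058, adjusted p = 3.59e-07, limma) at percentile 98.9. Amotl2, an angiomotin family protein that binds YAP at junctions and so is both a target and an inhibitor, had 171, 163 and 152 TPM in knockout-labelled cells, against 43.1, 37.2 and 35.4 TPM in re-expressing cells. All knockout-labelled libraries were far higher, with a log2 difference of 2.05 (SE 0.086, adjusted p = 4.22e-06, limma).

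Ccn2 encodes CTGF, a secreted protein of the same family as Ccn1. It had 246, 243 and 215 TPM in knockout-labelled cells, against 154, 152 and 150 TPM in re-expressing cells. Its groups did not overlap, but its log2 difference of 0.62 (SE 0.065, adjusted p = 1.97e-04, limma) was below those of the other 3 targets. Summed over the 4 targets, levels were 967 ± 46.6 TPM in knockout-labelled cells and 275 ± 5.45 TPM in re-expressing cells (SD, n = 3 each). Ccn2 made up 24.3% of that sum in knockout-labelled cells and 55.3% in re-expressing cells, while Ankrd1 made up 41.9% in knockout-labelled cells and 24.4% in re-expressing cells. The order of the targets was therefore different: in knockout-labelled cells Ankrd1 was the highest, then Ccn2, then Ccn1 and Amotl2, whose libraries overlapped. In re-expressing cells Ccn2 was the highest, followed by Ankrd1 and Amotl2, and Ccn1 was the lowest of the 4, overlapping the libraries of Tead4 and Tead1.

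**Figure D2:**
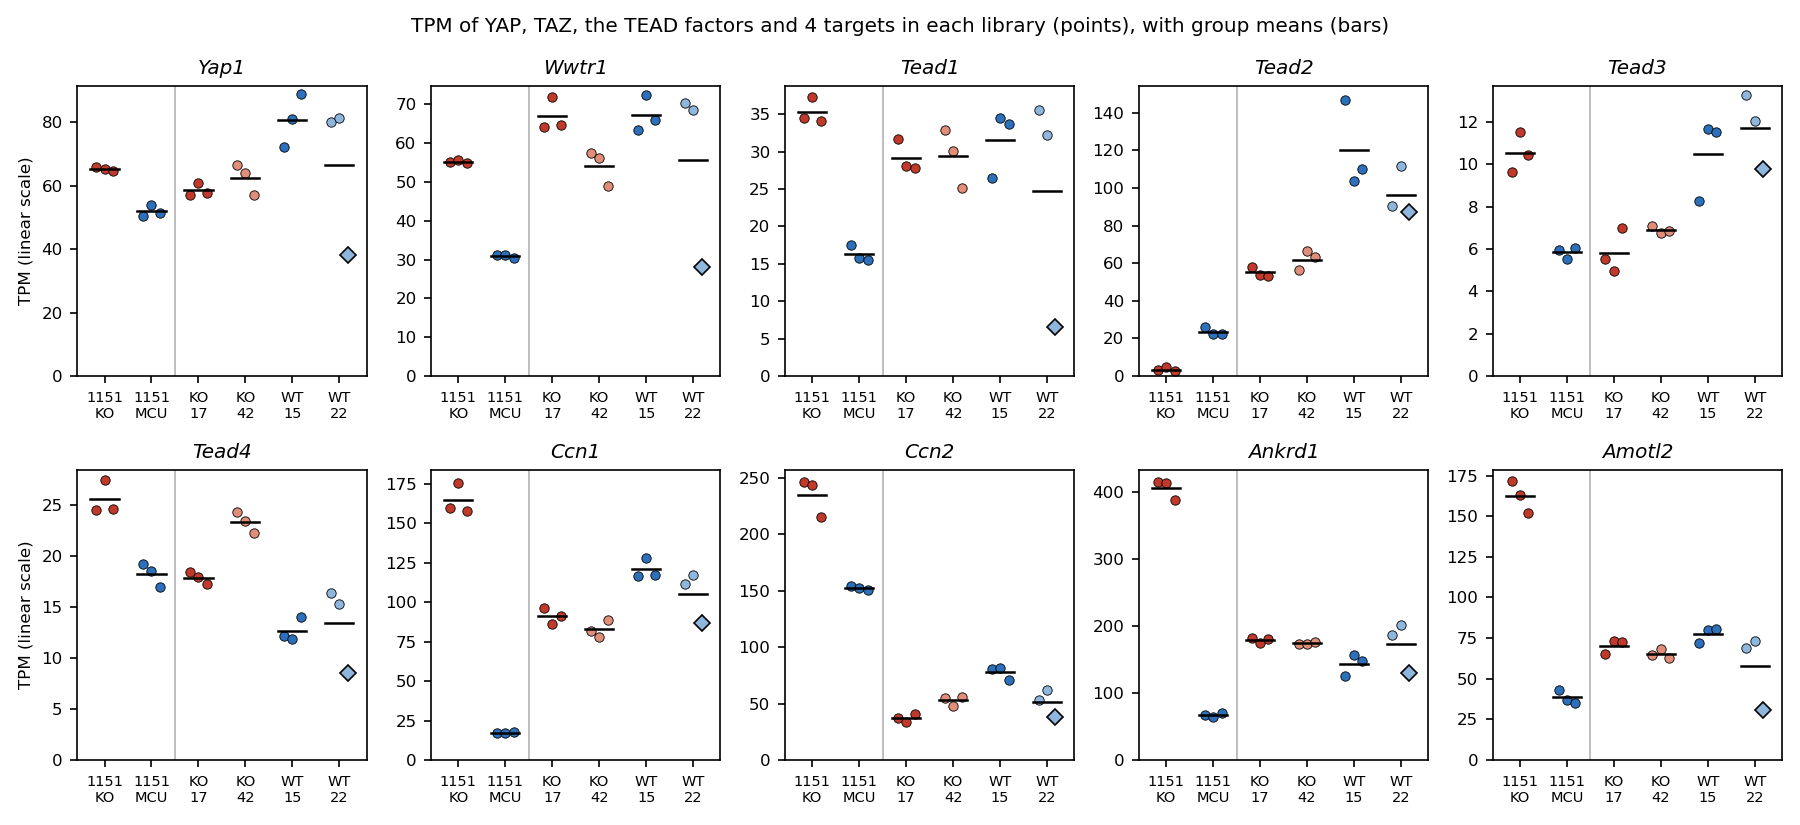
TPM (y axes, linear and each from 0) of the 10 genes in each library (points) of the 6 groups (x axis), with group means as bars; the diamond is wild-type clone 22 replicate 3. In line 1151 the 9 genes other than Tead2 lie higher in all libraries labelled knockout (KO) than in those labelled re-expressing (MCU), and in line 2838 the knockout (KO) clones lie below the wild-type (WT) clones in Tead2 and Tead3 and above them in Tead4.

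These calls rest on the spread between libraries of a group. When the spread was taken instead from the 6 group means of the series, 3 of the 10 genes were called, beside 2.15% of 12458 genes: Ccn1 (adjusted p = 0.0198, limma) and Ankrd1 (adjusted p = 0.0243, limma) higher and Tead2 (adjusted p = 0.0386, limma) lower. The other 7 kept their direction and lost the call. With the spread of all 18 libraries only Yap1 lost its call (adjusted p = 0.232, limma). The 10 genes lie on chromosomes 3, 6, 7, 9, 10, 17 and 19, and the median difference of all genes on a chromosome ranged among these from -0.056 on chromosome 9 to 0.52 on chromosome 19, which holds Ankrd1. Relative to its chromosome Ankrd1 was still 2.06 higher on the log2 scale, Ccn1 3.19 higher and Amotl2 2.11 higher, whereas Tead4 was 0.20, Ccn2 0.28 and Yap1 0.38 higher.

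Other genes of the pathway were read from 4 lists, beside the 61% of all genes called in 1151 (34% higher, 27% lower). Among the Hippo kinases and their adaptors, 12 of 19 tested genes rose, 2 fell and 5 were not called in knockout-labelled cells (median log2 difference 0.34). The LATS kinases, which phosphorylate YAP and TAZ, both rose: Lats2, itself a YAP target, by 1.42 (adjusted p = 1.81e-05, limma) to 28.3 ± 1.66 TPM in knockout-labelled cells, against 9.94 ± 0.916 TPM in re-expressing cells (SD, n = 3 each), and Lats1 by 0.69 on the log2 scale. Frmd6, an upstream adaptor, rose by 1.02 and Taok3, a kinase upstream of MST, by 0.69. Mink1, a kinase of the MAP4K family, fell by 0.74 and Taok2 fell by 0.26. Of 13 tested genes whose proteins bind YAP, TAZ or TEAD, 8 rose, 3 fell and 2 were not called (median 0.25). Vgll3, which binds TEAD in place of YAP, rose by 1.46, to 4.14 ± 0.899 TPM in knockout-labelled cells, against 0.905 ± 0.533 TPM in re-expressing cells (SD, n = 3 each), and it was listed at 0 in all 12 libraries of 2838. The angiomotin Amotl1 rose by 1.00, the 14-3-3 gene Ywhaz by 0.77 and the phosphatase Ptpn14 by 0.66, whereas Amot fell by 0.48, Ywhaq by 0.26 and Limd1 by 0.24.

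Among 15 tested further targets of YAP and TAZ, 12 rose, 0 fell and 3 were not called, with a median of 0.66. The list was chosen with earlier results of these data known, so its common direction is not independent evidence. Crim1, a membrane protein that binds BMPs, showed the largest difference of the list: it rose by 1.82 (adjusted p = 4.83e-06, limma), to 106 ± 4.01 TPM in knockout-labelled cells, against 29.5 ± 2.87 TPM in re-expressing cells (SD, n = 3 each). It was followed by Lats2, by Asap1, a regulator of ARF GTPases (1.41), and by Myof, the membrane repair protein myoferlin (1.05). The 3 without a call were Nt5e at 0.17, Dock5 at -0.14 and Fjx1 at -0.23. Of the 18 listed, knockout-labelled libraries all lay above re-expressing libraries for 13 and below them for 2, Dock5 and Fjx1. Among all genes these shares were 37.4% and 29.8%. Of 9 tested polarity genes and cadherins upstream of the kinases, 5 rose and 3 fell (median 0.43). The giant cadherin Fat1 rose by 1.61, the atypical protein kinase C gene Prkci by 0.84, the scaffold Dlg1 by 0.75 and Mpp5, which encodes the Crumbs complex protein PALS1, by 0.48. Crb3, a Crumbs protein, fell by 1.40, to 19.6 ± 1.32 TPM in knockout-labelled cells, against 53.1 ± 2.04 TPM in re-expressing cells (SD, n = 3 each), and Patj, of the same complex, and Pard3 each fell by 0.57. With the spread of the 6 group means, 1 gene of the binder list and 0 of the other 3 lists were called, beside 2.15% of all genes. With the spread of all 18 libraries 4 Hippo kinase and adaptor genes, 6 binders, 10 further targets and 5 polarity genes were called, beside 37.2% of all genes.

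Levels of other cell types' markers were set beside these groups. Summed epithelial markers were 5566 to 5834 TPM in knockout-labelled libraries and 5499 to 5748 TPM in re-expressing libraries. Of 7 tested epithelial markers 4 were called higher and 3 lower, beside 61% of all genes (34% higher, 27% lower). Knockout-labelled libraries lay above re-expressing libraries for Krt7, Krt18, Sox9, Cldn4 and Epcam, and below them for Krt8, Krt19 and Cdh1. No overlap was seen for 67.2% of all genes. On the log2 scale Krt7 rose by 2.55 and Krt19 fell by 1.10. The 8 fibroblast markers summed to 0.674 to 1.36 TPM in knockout-labelled libraries and 0.277 to 0.578 TPM in re-expressing libraries, with Lum at 0 in both. Of 5 endothelial markers, summed at 8.32 to 8.77 TPM in knockout-labelled libraries and 5.60 to 6.10 TPM in re-expressing libraries, Kdr was at 8.51 ± 0.239 TPM in knockout-labelled and 0.767 ± 0.0793 TPM in re-expressing cells, Cdh5 at 0.00568 ± 0.00983 TPM in knockout-labelled and 4.92 ± 0.345 TPM in re-expressing cells (SD, n = 3 each), and Tek and Emcn were at 0. Leukocyte markers summed to 1.65 to 2.83 TPM in knockout-labelled libraries and 1.35 to 1.65 TPM in re-expressing libraries, with Cd68 above 1 TPM and Adgre1 and Cd3e at 0. Acinar markers summed to at most 0.735 TPM in knockout-labelled and 1.14 TPM in re-expressing libraries. The part of these markers in the results was not tested.

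**Figure D3:**
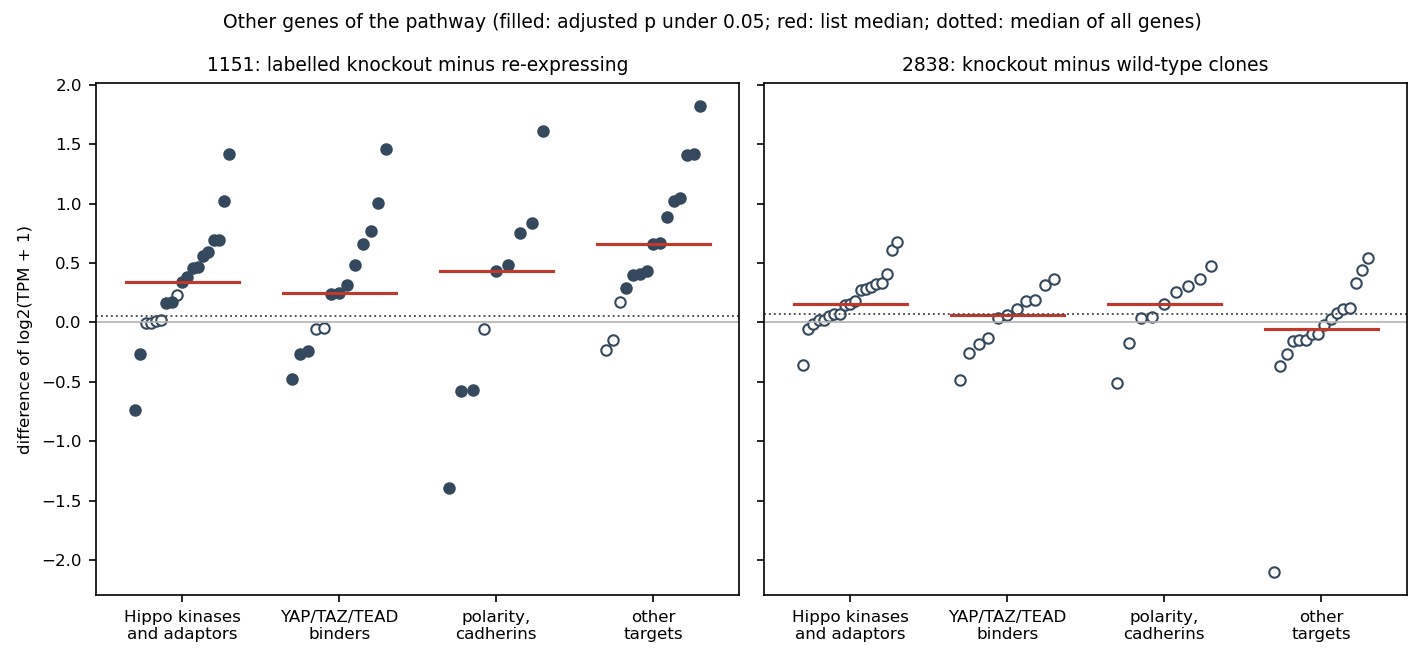
Difference of log2(TPM + 1) (y axes) of each tested gene in 4 lists of the pathway (x axes), in 1151 cells labelled knockout minus re-expressing (left) and 2838 knockout minus wild-type clones (right); filled points have an adjusted p under 0.05, red lines are list medians and dotted lines the median of all genes. In 1151 all 4 list medians lie above the median of all genes, with 12 of 15 further targets called higher, and in 2838 no gene of the lists is called.

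In line 2838, 3 of the 4 TEAD factors separated the labels, and the targets did not. Libraries of the knockout clones lay below those of the wild-type clones for Tead2 and Tead3 and above them for Tead4, with no overlap of 6 libraries with 6. The other 7 genes overlapped. No overlap was seen for 5.04% of 11795 genes (3.53% higher in knockout clones, 1.52% lower). Clones are the replicates of a genotype here, so the test compared the means of the 2 knockout clones with those of the 2 wild-type clones, and 0 of the 10 genes were called, beside 0.0763% of genes (9 of 11795; 662 genes had an unadjusted p under 0.05 in limma). At an unadjusted p under 0.05 were Tead2, Tead3 and Tead4.

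Tead2 spanned 53.3 to 66.3 TPM in the knockout clones, with a median of 57.2, and 86.9 to 147 TPM in the wild-type clones, with a median of 107. By clone it averaged 55.0 ± 2.66 TPM in knockout clone 17 and 61.9 ± 5.12 TPM in knockout clone 42, against 120 ± 23.3 TPM in wild-type clone 15 and 96.3 ± 13.3 TPM in wild-type clone 22 (SD, n = 3 each). Both knockout clones were lower than both wild-type clones. Over clone means the log2 difference was -0.86 (95% interval before adjustment -1.34 to -0.38, adjusted p = 0.372, limma). Each of the 4 pairs of a knockout with a wild-type clone was lower: clone 17 minus clone 15 gave -1.10, clone 42 minus clone 15 gave -0.93, clone 17 minus clone 22 gave -0.79 and clone 42 minus clone 22 gave -0.62. Between clones of one label the differences were smaller, at 0.17 for clone 42 minus clone 17 and -0.31 for clone 22 minus clone 15. Under a rule that calls a gene when all 4 such pairs share a sign and each has an adjusted p below 0.05, Tead2 was the only one of the 10 genes called (lower, largest adjusted p = 0.0212, limma), beside 1.01% of genes (0.517% lower). That rule measures spread between libraries of a clone and not between clones. The call was lost when any one of 5 libraries was left out: clone 22 replicate 2 (adjusted p = 0.0655), clone 17 replicate 2 (0.0521) and clone 42 replicates 1, 2 and 3 (0.0990, 0.0522 and 0.0686), all from limma.

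Tead3, the lowest of the TEAD genes here, spanned 4.98 to 7.10 TPM in the knockout clones, with a median of 6.81, and 8.29 to 13.3 TPM in the wild-type clones, with a median of 11.6. Its log2 difference over clone means was -0.71 (95% interval -1.34 to -0.079, adjusted p = 0.807, limma), and 3 of its 4 clone pairs were called, the exception being clone 42 minus clone 15 (adjusted p = 0.0921, limma). Single pairs called 10.7% of genes for clone 17 minus clone 15, 6.49% for clone 17 minus clone 22, 12.3% for clone 42 minus clone 15 and 10.3% for clone 42 minus clone 22. Tead4 spanned 17.3 to 24.3 TPM in the knockout clones, with a median of 20.3, and 8.49 to 16.4 TPM in the wild-type clones, with a median of 13.1. Its log2 difference over clone means was 0.64 (95% interval 0.051 to 1.22, adjusted p = 0.815, limma), and it was called higher in both pairs with clone 42, by 0.83 over clone 15 and by 0.81 over clone 22. Tead1 spanned 25.2 to 32.9 TPM in the knockout clones and 6.53 to 35.5 TPM in the wild-type clones, and the groups overlapped. The low end was wild-type clone 22 replicate 3, where Tead1 lay 2.21 below the other libraries of its clone on the log2 scale, at percentile 1.66 of all genes.

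As a share of the TEAD sum, Tead2 was 46.7 to 53.8% in the 6 knockout libraries and 58.1 to 77.8% in the 6 wild-type libraries, and Tead4 was 16.2 to 20.2% in knockout libraries and 6.26 to 10.5% in wild-type libraries. Neither range overlapped. Tead2 was the largest part of the sum in all 4 clones, unlike in 1151 cells labelled knockout. The sum itself was 108 ± 5.02 TPM in knockout clone 17 and 122 ± 4.59 TPM in knockout clone 42, against 175 ± 16.8 TPM in wild-type clone 15 and 146 ± 30.8 TPM in wild-type clone 22 (SD, n = 3 each).

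Yap1 spanned 57.0 to 66.5 TPM in the knockout clones, with a median of 59.2, and 38.2 to 88.9 TPM in the wild-type clones, with a median of 80.6. All wild-type libraries but clone 22 replicate 3 were above all knockout libraries. The log2 difference was -0.23 (95% interval -0.72 to 0.26, adjusted p = 0.999, limma). Wwtr1 spanned 49.0 to 71.9 TPM in the knockout clones and 28.1 to 72.5 TPM in the wild-type clones, which overlapped, and its log2 difference was 0.031 (95% interval -0.49 to 0.55). The Yap1 to Wwtr1 ratio was 0.847 to 0.892 in knockout clone 17 and 1.14 to 1.16 in knockout clone 42, against 1.12 to 1.35 in wild-type clone 15 and 1.14 to 1.36 in wild-type clone 22. Clone 17 was the only group of the 6 in which Wwtr1 was above Yap1 in every library.

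Of the targets, Ccn1 spanned 78.2 to 96.6 TPM in the knockout clones, with a median of 87.7, and 86.8 to 128 TPM in the wild-type clones, with a median of 117. The ranges met only through wild-type clone 22 replicate 3. The log2 difference of Ccn1 was -0.37 (95% interval -0.82 to 0.093, adjusted p = 0.999, limma), opposite in sign to 1151. Ccn2 averaged 37.4 ± 3.48 TPM in knockout clone 17 and 52.9 ± 4.19 TPM in knockout clone 42, against 77.7 ± 6.10 TPM in wild-type clone 15 and 51.2 ± 12.3 TPM in wild-type clone 22 (SD, n = 3 each). On the log2 scale Ccn2 was 0.49 for clone 42 minus clone 17 and -0.62 for clone 22 minus clone 15, beside -1.04 to 0.072 in the pairs of a knockout with a wild-type clone. Ccn2 was called lower for clone 17 minus clone 15 (-1.04, adjusted p = 0.00282, limma), beside 10.7% of genes called. Ccn1 was called lower for clone 42 minus clone 15 (-0.54, adjusted p = 0.0153, limma), beside 12.3% of genes called. Ankrd1 spanned 173 to 182 TPM in the knockout clones and 125 to 201 TPM in the wild-type clones, with a log2 difference of 0.18 (95% interval -0.27 to 0.63). Amotl2 spanned 62.6 to 73.3 TPM in the knockout clones and 30.6 to 80.9 TPM in the wild-type clones, with a log2 difference of 0.066 (95% interval -0.46 to 0.60). These intervals, before adjustment, do not reach the 1151 point estimates of 2.58 for Ankrd1 and 2.05 for Amotl2. That is not a test between the lines. The test of the difference between lines called neither gene (adjusted p = 0.0538 and 0.158, limma). The 4 targets summed to 378 ± 8.79 TPM in knockout clone 17 and 375 ± 7.98 TPM in knockout clone 42, against 420 ± 26.0 TPM in wild-type clone 15 and 387 ± 89.5 TPM in wild-type clone 22 (SD, n = 3 each). Ankrd1 had the highest mean of the 10 genes in all 4 clones, though its libraries overlapped those of Ccn1 in wild-type clone 15. Between clones of one label 0 of the 10 genes were called, beside 17.2% of genes for clone 42 minus clone 17 and 1.92% for clone 22 minus clone 15.

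**Figure D4:**
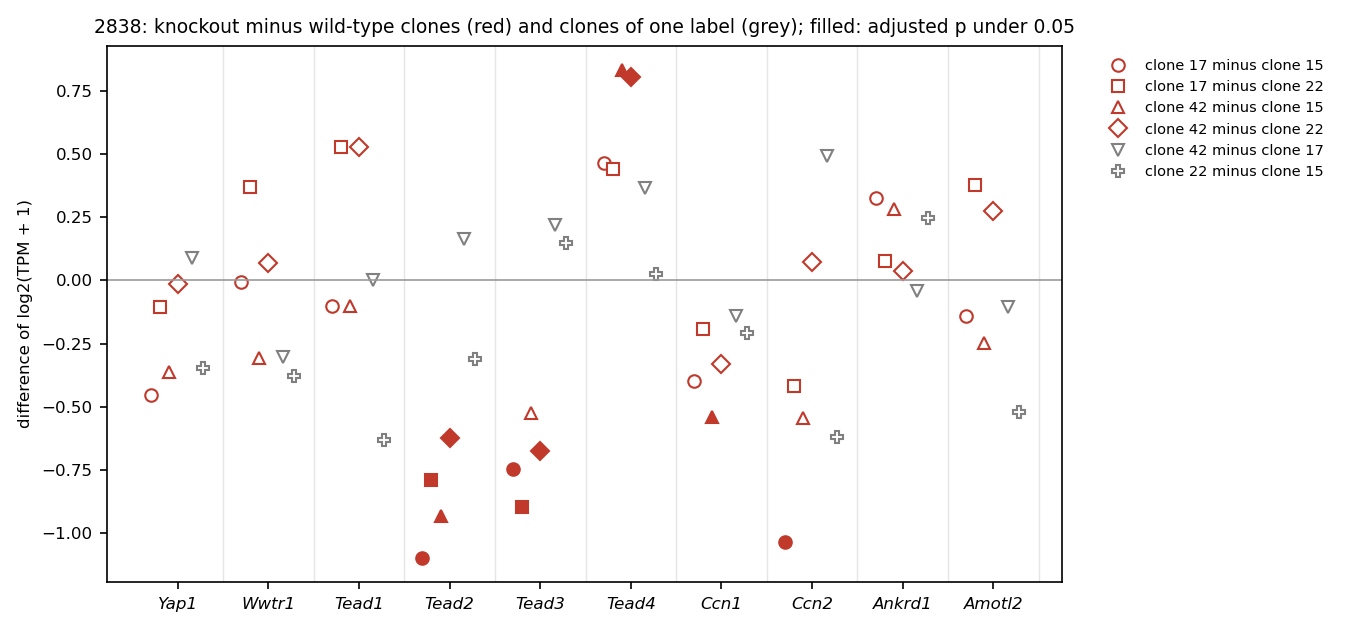
Differences of log2(TPM + 1) (y axis) for the 10 genes (x axis) in each pair of a 2838 knockout clone minus a wild-type clone (red) and each pair of clones of one label (grey); filled points have an adjusted p under 0.05. Tead2 is filled in all 4 red pairs, from -1.10 to -0.62, Tead3 in 3 and Tead4 in 2. Ccn2 is filled for clone 17 minus clone 15 (-1.04) and Ccn1 for clone 42 minus clone 15 (-0.54), and no grey point is filled.

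Without wild-type clone 22 replicate 3, the knockout libraries also lay below all wild-type libraries for Yap1 and Ccn1, giving 1 gene above, 4 below and 5 that overlapped, beside 9.78% of genes without overlap (4.43% higher, 5.36% lower). The rule over all clone pairs then called Yap1 (adjusted p = 0.0174), Tead2 (0.00551), Tead3 (0.0171) and Ccn1 (0.0178) lower in limma, which is 4 of 10 genes beside 3.88% of genes (2.41% lower). The test on clone means still called 0 of 10, beside 0% of 11767 genes, with 748 genes at an unadjusted p under 0.05. The directions of Wwtr1 (-0.18), Tead1 (-0.15) and Amotl2 (-0.13) were then negative.

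With all libraries, in the 4 pathway lists 0 of 19 Hippo kinase and adaptor genes, 0 of 11 binders, 0 of 16 further targets and 0 of 9 polarity genes were called in 2838, over clone means or over all pairs, with medians of 0.16, 0.063, -0.057 and 0.16 beside 0.075 for all genes. Crim1 was -0.020, Lats2 0.34, Amotl1 -0.48 and Asap1 -0.099 in 2838. Without wild-type clone 22 replicate 3, knockout libraries lay below all wild-type libraries for 3 of the 18 listed further targets, Foxf2, Arhgef17 and Nuak2. They also did for 1 of 15 listed binders, Amotl1, beside 5.36% of genes lower. Knockout libraries lay above all wild-type libraries for 2 of 20 listed Hippo genes, Wwc1 and Taok3, and 1 of 15 listed binders, Ajuba. This held with and without that replicate, beside 3.53% of genes higher with it and 4.43% without it.

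The difference between labels was compared between the lines on the 6 group means. The 1151 means left no spread of their own here either, so the test rests on the spread between 2838 clones of the same label. The lines also hold unlike contrasts. In 1151, MCU was put back into Cre knockout cells under puromycin. In 2838, CRISPR knockout clones were set beside wild-type clones, and puromycin is not named. The log2 difference of Ccn1 was 3.54 larger in 1151 than in 2838 (SE 0.26, adjusted p = 0.0355, limma), and it was the only one of the 10 genes called, beside 1.1% of 12458 genes (0.658% higher). Ankrd1 was next, at 2.40 (adjusted p = 0.0538), then Amotl2 at 1.98 (adjusted p = 0.158), Tead2 at -1.65 (adjusted p = 0.155) and Tead3 at 1.46 (adjusted p = 0.231), all from limma. Tead3 was higher with the knockout label in 1151 and lower in 2838, but this difference did not pass the test. Yap1, Ccn1 and Ccn2 also had opposite signs in the lines. Wwtr1, Tead1, Tead2, Tead4, Ankrd1 and Amotl2 had one direction in both, though in 2838 Wwtr1 was only 0.031 and Amotl2 0.066. With any 1 clone left out, 1 clone stayed under its label, and Ccn1 lost its call, as did every other gene. The difference of Ccn1 was then 3.43 to 3.64. Its call was also lost without 1151 knockout replicate 1 (adjusted p = 0.0536), knockout replicate 2 (0.0507) or re-expressing replicate 2 (0.0502), all from limma. In these 3 fits 4, 4 and 9 genes were called in all. Without wild-type clone 22 replicate 3, Ccn1 (adjusted p = 0.0325, limma) and Amotl2 (adjusted p = 0.0462, limma) were called, beside 1.27% of genes.

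**Figure D5:**
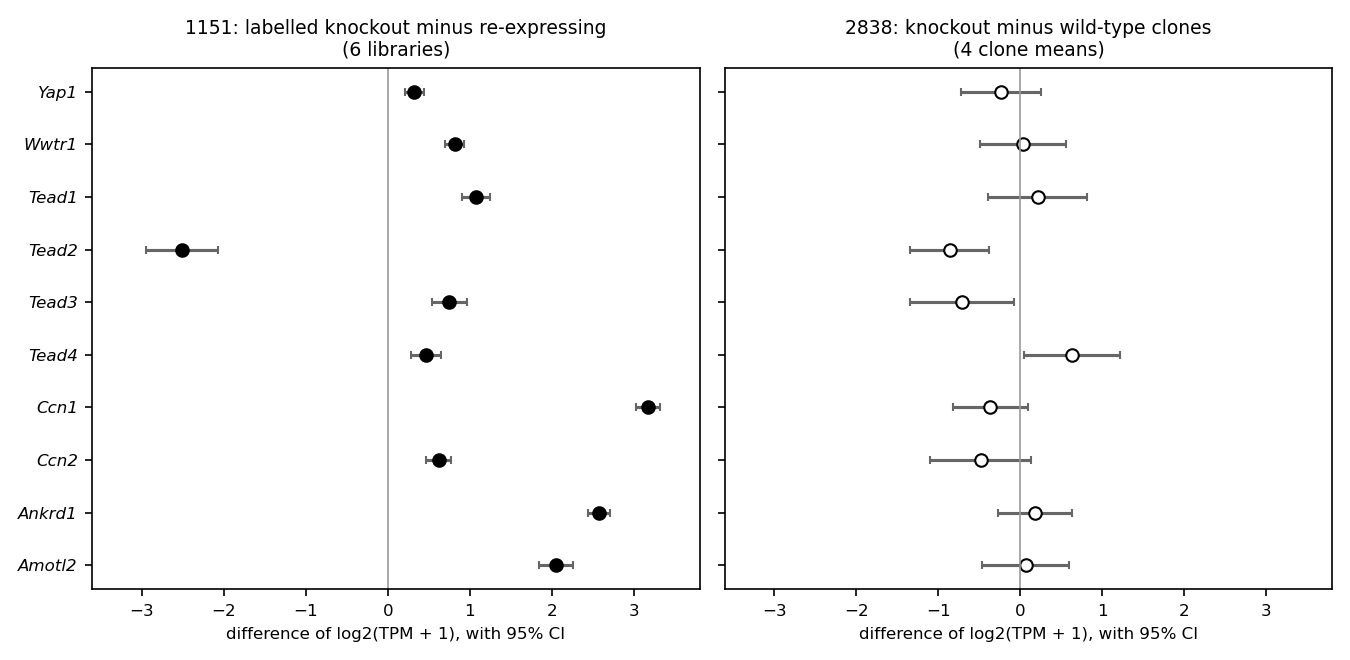
Difference of log2(TPM + 1) with its 95% interval (x axes) for each of the 10 genes (y axis), in 1151 cells labelled knockout minus re-expressing over 6 libraries (left) and 2838 knockout minus wild-type clones over 4 clone means (right); filled points have an adjusted p under 0.05. All 10 points are filled in 1151, from -2.51 for Tead2 to 3.17 for Ccn1, and none in 2838, where values run from -0.86 for Tead2 to 0.64 for Tead4.

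The genes whose pattern over the 6 groups came nearest to each of 5 genes were found among 9342 genes with a mean of at least 5 TPM, by the root mean square difference of group means of log2(TPM + 1), centred within each line. Nearest to Ccn1 was Fbln2 (0.075), which encodes the matrix protein fibulin-2, followed by the actin-binding caldesmon gene Cald1 (0.098) and Plaat3 (0.12), against a root mean square of 0.93 for Ccn1 itself. Nearest to Ankrd1 (0.75) were Abcc3 (0.11), Slc16a13 (0.13) and Exo5 (0.14). Nearest to Amotl2 (0.61) were Polr1a (0.078), Fosl2, an AP-1 factor (0.090), and Vegfa (0.094). Among the 3 nearest to Ccn2 (0.35) were Tafa5 (0.064) and Mpdz (0.067), and among the 3 nearest to Yap1 (0.17) were Nid1 (0.043) and Timm29 (0.043). None of the 4 targets was among the 3 nearest to another. Their unequal 1151 differences (3.17 for Ccn1, 2.58 for Ankrd1, 2.05 for Amotl2 and 0.62 for Ccn2) already set them apart by this measure. The ranking therefore cannot show whether the targets vary together.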

How the data were processed

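PolyA RNA of 18 libraries was measured. For 35642 genes the authors deposited TPM; Salmon, DESeq2 and mm10 are the tools and build in the submitters' processing notes, and versions are not given in the sources used here. TPM keeps no depth, so no counting interval is given, and a rise of a few abundant genes lowers all others. Column totals were 998353 to 998961 TPM, and no 2 libraries were identical. The 10 genes and the lists were chosen with earlier results of these data known.

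Values were taken as log2(TPM + 1), which understates changes of low genes. A gene entered a fit when 3 or more of its libraries reached 1 TPM, and was tested with limma 3.58.1 (trend) in R 4.3.3, with Benjamini-Hochberg adjustment over all genes and a threshold of 0.05. Line 1151 was tested over 6 libraries, line 2838 over 4 clone means and over all 4 clone pairs of a 12-library fit, and the difference between lines over 6 group means. The fits were also run on simulated data, and the outcome is not given here.

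Some genes that these rules name, and an allele, are not reported here. All 10 genes are named in each comparison, and from each list at most the 4 largest called rises and falls in 1151. The 3 further targets with no call, those named for lack of overlap in 2838 and the marker genes given with values were named after their values were seen. Positions came from GENCODE M21 (mm10), upstream sequences from RefSeq. Alternatives were a pseudocount of 0.1, no filter, a mean of at least 5 TPM, other scalings, no trend, a replicate block, other sources of spread, and each library or clone left out.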

Additional observations from a re-analysis of the deposited data

Results flagged for a closer look

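The difference of Ccn1 between labels was unequal in the lines, by a test of the difference itself: 1151 minus 2838 gave 3.54 on the log2 scale (adjusted p = 0.0355, limma). Ccn1 was higher in 3 of 3 knockout-labelled libraries of 1151, and lower in both knockout clones of 2838 than in both wild-type clones by their means. The call was lost under 8 of 31 alternatives, among them no trend (adjusted p = 0.0730, limma) and each clone left out in turn. Line, batch and the kind of contrast (MCU put back under puromycin in 1151, CRISPR knockout beside wild-type clones in 2838) cannot be told apart in this comparison of the lines.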

How the results depend on the processing

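In 1151 the 10 genes kept their direction under all 16 alternatives, and 152 of 160 gene values kept their call. The spread of the 6 group means called 3 of 10 genes and 268 genes in all, and that of 18 libraries 4637. Over 2838 clone means, signs turned with median-of-ratios scaling for Wwtr1 (-0.038) and Amotl2 (-0.0035), and with quantile normalization for Wwtr1 (-0.073) and Amotl2 (-0.035). With a library or clone left out, Wwtr1 ranged from -0.18 to 0.22, Tead1 from -0.15 to 0.53 and Amotl2 from -0.19 to 0.33; the negative values came without clone 22 or its replicate 3 and, for Wwtr1, also without clone 17. Calls among the 10 were 3 with libraries as replicates (431 genes in all) and 0 to 1 with a library or clone left out (0 to 398 in all); all genes called were 3 with median-of-ratios scaling, 4 with quantile normalization, 4 without a trend and 0 without a filter (978 at an unadjusted p under 0.05 in limma). Over all clone pairs, median-of-ratios scaling called 2 of 10 genes (193 in all), quantile normalization 215 in all, and leaving out a library 0 to 4 (65 to 457 in all). For the difference between lines, 2 of 10 were called without a filter (1220 in all), at a mean of at least 5 TPM, with quantile normalization (211 in all) and without mitochondrially encoded genes, 0 without a trend (0 in all, 1723 at an unadjusted p under 0.05 in limma), 7 with 18 libraries as replicates (4190 in all), and 0 to 2 with a library or clone left out (0 to 158 in all); Tead4 ranged from -0.35 to 0.012, which came without clone 42. The causes were not tested.

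Replicate numbers were not taken to pair the samples: deviations of same-numbered libraries correlated between -0.163 and 0.201, and a library correlated best with its own number in 0 of 6 cases in 1151 and 13 of 36 in 2838. A replicate block left the 10 calls of 1151. For 2838 and for the difference between lines, the fit with a block also took libraries as replicates in place of means. It called 2 of 10 in 2838 (289 genes in all) and 7 of 10 for the difference between lines (4171 in all). Libraries as replicates without a block called 3 of 10 (431 in all) and 7 of 10 (4190 in all).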
